A study of Rattus norvegicus with 2 samples.

Results

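Glycolysis, the pentose phosphate pathway and the citrate cycle were examined in uncultured rat lung cells through the 40 genes of glucose uptake, glycolysis, pyruvate entry, citrate cycle and pentose phosphate metabolism listed for these pathways, of which 37 were found among the named probes of the arrays. The genes were chosen by name, through the platform's gene symbols updated to current ones. The rule used no measured value, but members and lists were chosen with earlier results of these data known. The genes found were measured by 47 of the 40012 probes and made up 37 of the 15611 genes. Pdk1, Idh1 and Pgd were not analysed here.

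Each of 2 two-colour Agilent oligonucleotide arrays carried RNA of untreated lung cells that had not been cultured, labelled with Cy3, against RNA of a control called mix1, labelled with Cy5. Mix1 pooled cultured bone marrow cells (BMC) with cultured primary ear fibroblasts (PEF) of the rat, each kept in medium with fetal bovine serum. The labels used here give no strain, age, number of animals or proportions of mix1. Nothing in them says that the lung replicates are from different animals, so the p-values cover the spread between 2 samples that may be technical repeats. The comparison asked how expression in lung cells differed from that of these cultured cells.

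Glycolysis splits glucose into pyruvate in the cytosol: transporters bring glucose in, hexokinase and phosphofructokinase spend ATP to prime it, and the steps from glyceraldehyde phosphate dehydrogenase to pyruvate kinase return ATP. Pyruvate is either reduced to lactate by lactate dehydrogenase or oxidised to acetyl-CoA by the mitochondrial pyruvate dehydrogenase complex, whose kinases switch it off, and acetyl-CoA is then burned in the citrate cycle. The pentose phosphate pathway branches off before the priming step of phosphofructokinase and yields NADPH and ribose, with transketolase and transaldolase returning its sugars to glycolysis. Dividing cultured cells are known for a high glycolytic rate, and lung tissue is known to consume glucose and release lactate.

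Every value is a log2 ratio of lung over mix1 on one array, so that 1 stands for a 2-fold higher and -1 for a 2-fold lower signal in lung. It says nothing of the level of one gene against another. The sign was read as lung over mix1. No source states this, but it is the likely reading: the series words its values as lung compared with mix1, and 6 lung epithelial genes chosen to read the sign lay between 3.94 (Ager, of alveolar type I cells) and 7.02 (Sftpc, surfactant protein C). If it ran the other way, all higher genes would be lower and all lower genes higher. The tissue label fitted its markers in this direction: 9 of 9 other alveolar epithelium genes and 10 of 10 endothelium genes were higher in lung, and 12 of 12 fibroblast genes were lower. Of markers of other cell types, 7 of 8 lymphocyte genes were higher and 0 lower. Macrophage genes divided, with 5 of 10 higher and 3 lower. Of 13 cardiac and skeletal muscle genes, 7 were higher and 3 lower. The cardiac Tnni3, Myh6, Myl7, Myh7, Tnnt2 and Actc1 were higher, from 4.43 to 2.09, and Ryr2 did not pass. The skeletal Myh1, Myh2 and Tnnt3 were lower, from -8.06 to -0.53, and Myh4 and Tnni2 did not pass. Ckm was higher at 3.16 ± 1.34 (SD, n = 2). The part of muscle in the pathway ratios was not tested. Because no array had the dyes swapped, a dye effect and the difference between the RNAs cannot be told apart. Nor can fewer cells of a type and less RNA per cell, in lung or in mix1. The number of arrays limited the precision of every value.

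Of the 37 genes, 23 were lower in lung, 9 were higher and 5 did not pass limma's moderated test against 0 (Benjamini-Hochberg adjusted p under 0.05 over all 15611 genes). Most genes on these arrays passed it: 49.7% of all genes were lower and 32.9% higher, together 82.7%, and the median of all genes was -0.22 (-0.19 in replicate 1 and -0.26 in replicate 2). The median of the 37 genes was -0.69. Counted by size instead, 14 of the 37 genes were at least 2-fold lower in both arrays and 4 were at least 2-fold higher, where 15.8% and 16.5% of all genes were. Of the 14 lower genes, 11 belonged to glycolysis, and the 4 higher genes were Pdk4 and Pdha1 of pyruvate entry, Taldo1 of the pentose phosphate branch and the transporter Slc2a3. In glycolysis, 15 of 21 genes were lower and 3 higher (median -1.16). In pyruvate entry, 2 of 5 were lower and 3 higher (median 0.74). In the citrate cycle, 6 of 9 were lower and 2 higher (median -0.63), or 5 lower and 3 higher with each array's median subtracted (37.9% of all genes lower and 40.4% higher). Of the 2 pentose phosphate genes measured, 1 was higher and 1 did not pass. The difference between these lists was not tested.

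**Figure D1:**
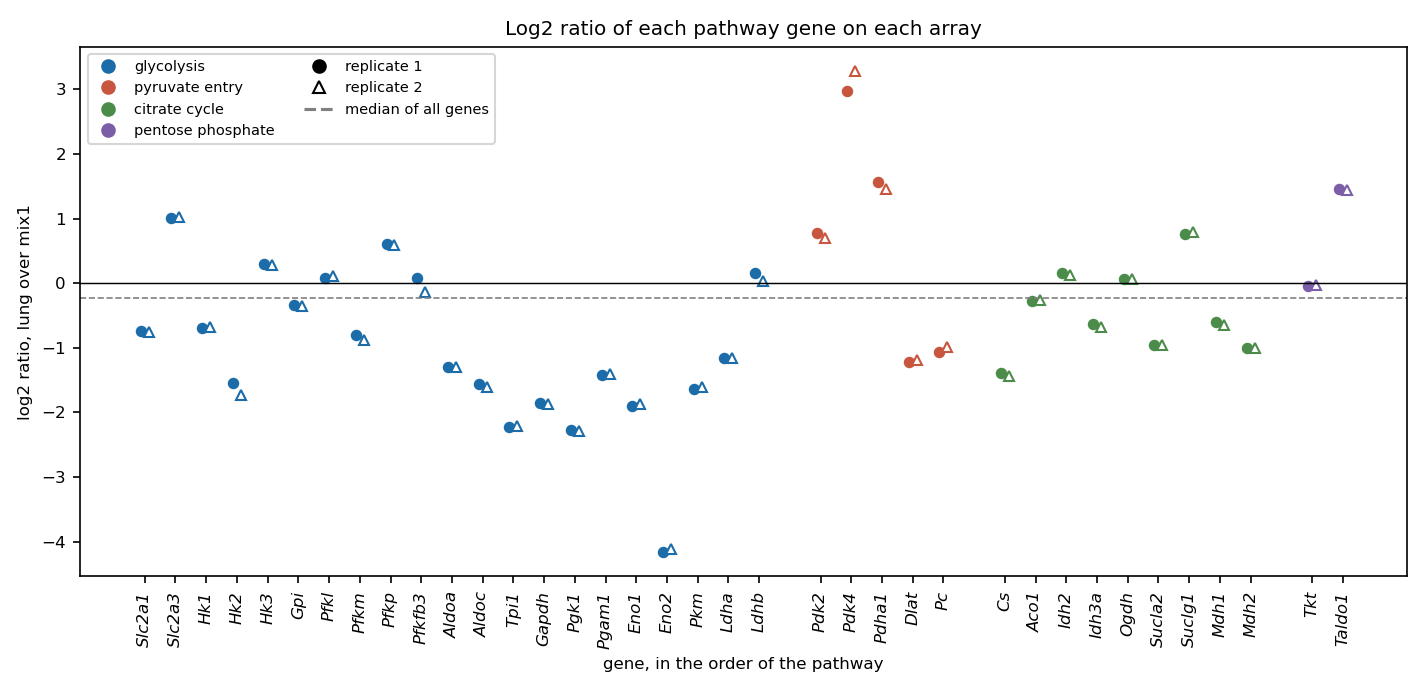
Log2 ratio of lung over mix1 (vertical axis) of the 37 genes in pathway order, with replicate 1 as filled circles and replicate 2 as open triangles, coloured by pathway, and the median of all genes (-0.22) as a dashed line. The genes from Aldoa to Ldha all lie below -1 on both arrays, Eno2 is lowest near -4.1, and Pdk4 is highest near 3.

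Glucose uptake and the priming steps showed no common direction. Slc2a1, the widespread glucose transporter GLUT1, had log2 ratios of -0.74 and -0.76 in replicates 1 and 2 (-0.75 ± 0.01, SD, n = 2). Slc2a3, the high-affinity transporter GLUT3 of neurons and leukocytes, had 1.01 and 1.02 (1.02 ± 0.01). Each of the transporters was called, in opposite directions (limma adjusted p 0.00241 and 0.00172). Among the hexokinases, which trap glucose in the cell as its phosphate, Hk2, the inducible form of muscle and growing cells, had -1.55 and -1.73 (-1.64 ± 0.13, limma adjusted p 0.00252), a 3.12-fold lower signal in lung. Hk1, the housekeeping form also found in red cells, had -0.69 and -0.68 (limma adjusted p 0.00262), but its probes disagreed, as described with the other probes. Hk3, a form known from myeloid cells, was slightly higher at 0.30 and 0.28 (limma adjusted p 0.0106). All 8 neutrophil markers measured were higher too, from 1.31 to 7.65, and so were all 6 red cell markers, from 2.30 to 4.58; their part in the hexokinase ratios was not tested.

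The phosphofructokinase subunits, which form the committing enzyme of glycolysis, also divided. Pfkm, the muscle subunit, had -0.80 and -0.87 (-0.84 ± 0.05, SD, n = 2), Pfkl, the liver subunit, had 0.08 and 0.11, and Pfkp, the platelet subunit, had 0.60 and 0.59 (0.60 ± 0.01). Pfkm was lower and Pfkp higher (limma adjusted p 0.00294 and 0.00316), and Pfkl did not pass at an adjusted p of 0.0903. With each array's median subtracted, Pfkl passed as higher at 0.31 (limma adjusted p 0.00685). Pfkfb3, which makes the fructose bisphosphate that activates phosphofructokinase, had 0.08 and -0.13, on either side of 0 (limma adjusted p 0.759). Gpi, the isomerase between hexokinase and phosphofructokinase, was lower at -0.34 and -0.35, a call that ended at -0.13 with array medians subtracted (limma adjusted p 0.194).

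From aldolase to pyruvate kinase, each of the 9 listed genes was at least 2-fold lower in lung on both arrays. Their median was -1.86, and all 9 were also called lower with array medians subtracted. This stretch was singled out after its values were seen. Other measured isoenzymes of these steps did not share this. Eno3 had -0.74, Pklr -0.59, Gapdhs -0.40, Pgk2 -0.26, Pgam2 0.66 and Eno4 2.99. Of these, Pgk2 and Pgam2 did not pass. The 10 genes of uptake and priming had a median of -0.19. Aldoa and Aldoc, which cleave the primed sugar, had ratios of -1.30 ± 0.01 and -1.59 ± 0.04 (SD, n = 2). Tpi1, which interconverts the triose phosphates, had -2.22 on both arrays. Gapdh, the oxidising step and a gene often used to normalise expression, had -1.85 and -1.87, or 3.62-fold lower.

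Pgk1, the first ATP-yielding enzyme, had -2.27 and -2.29 (-2.28 ± 0.01, SD, n = 2), which is 4.85-fold lower. Pgam1, which moves the phosphate, had -1.42 and -1.40. Eno1, the widespread enolase, had -1.89 and -1.87. Eno2, the enolase known as neuron-specific, was the lowest of the 37 genes at -4.16 and -4.11, or 17.6-fold lower in lung, and only 0.961% of all genes ranked at or below it. Pkm, pyruvate kinase, had -1.63 and -1.60. The limma adjusted p of these 9 genes ran from 0.00117 to 0.00142, and their replicates differed by 0.04 (SD) at most. A rat probe for Gapdh may also read its processed pseudogenes, and the sources used here do not give the probe design.

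Of the lactate dehydrogenase subunits, Ldha, the subunit known from muscle and from glycolytic cells, had -1.16 on both arrays (-1.16 ± 0.01, SD, n = 2; limma adjusted p 0.00154), a 2.24-fold lower signal in lung. Ldhb, the heart subunit, had 0.15 and 0.04 and did not pass (adjusted p 0.180), although it did with array medians subtracted (0.32, limma adjusted p 0.00578). Mix1 was made of cultured cells, and 13 of 14 proliferation markers were lower in lung with a median of -2.81, such as the mitotic kinesin Kif20a at -4.28 ± 0.06 and the kinase Cdk1 at -3.42 ± 0.07; their part in the glycolytic ratios was not tested.

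Since most of these glycolytic genes had lower ratios together, the 250 bases before the annotated start of each were searched for ACGTG, the core of the element bound by hypoxia-inducible factors, on both strands (CACGT on the strand shown). The 4 sequences below, from RefSeq on GRCr8, show Eno2, the gene with the lowest ratio, Gapdh and Ldha, which hold the core, and Pdk4, the gene with the highest ratio, which does not. They are written 5′ to 3′ on the gene's strand and end at the base before the start, and capitals mark the core. They lie at chr4:159267221-159267470 (minus strand), chr4:159652468-159652717 (minus strand), chr1:106507842-106508091 (plus strand) and chr4:34568330-34568579 (minus strand).
Eno2: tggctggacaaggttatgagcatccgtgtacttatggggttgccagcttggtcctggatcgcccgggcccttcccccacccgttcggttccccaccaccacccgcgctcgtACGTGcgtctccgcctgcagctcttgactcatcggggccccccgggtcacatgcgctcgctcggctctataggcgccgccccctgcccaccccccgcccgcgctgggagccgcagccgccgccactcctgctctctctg
Gapdh: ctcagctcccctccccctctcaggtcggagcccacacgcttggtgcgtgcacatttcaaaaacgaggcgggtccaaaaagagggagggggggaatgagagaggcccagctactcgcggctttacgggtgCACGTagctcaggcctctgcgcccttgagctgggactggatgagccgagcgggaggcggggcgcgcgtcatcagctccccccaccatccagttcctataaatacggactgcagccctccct
Ldha: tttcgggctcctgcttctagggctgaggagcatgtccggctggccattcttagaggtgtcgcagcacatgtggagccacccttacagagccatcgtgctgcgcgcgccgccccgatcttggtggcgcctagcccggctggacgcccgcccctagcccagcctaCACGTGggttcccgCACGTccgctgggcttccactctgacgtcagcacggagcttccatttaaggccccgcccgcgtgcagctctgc
Pdk4: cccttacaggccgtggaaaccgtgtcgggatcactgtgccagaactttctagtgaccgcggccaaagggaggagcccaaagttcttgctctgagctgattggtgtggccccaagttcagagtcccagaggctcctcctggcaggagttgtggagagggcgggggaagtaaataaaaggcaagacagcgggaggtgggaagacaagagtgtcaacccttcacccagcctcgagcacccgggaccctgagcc

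In Ldha the core occurred at 3 places, of which those that begin 87 and 86 bases before the start overlap on opposite strands as CACGTG. That palindrome is also the E-box that Myc and other basic helix-loop-helix factors bind. Such windows were found for 33 of the 37 genes. The start annotations gave 23 windows for 19 of the 21 glycolytic genes, and 11 of the windows (47.8%) held the core, each in a different gene. The core stood in 2 of 4 windows of pyruvate entry genes, in 1 of 8 of citrate cycle genes and in neither of those of pentose phosphate genes. Of all 33469 windows of this length, 16.6% held it. These windows came from 27457 genes and so included genes beyond the 15611 named on the arrays. The windows also differed in base composition: the glycolytic windows had a median of 16 CG dinucleotides, the citrate cycle windows 16.5 and all windows 5, and the part of composition was not tested. The core was found beside lower ratios (Eno2, Gapdh, Ldha, Pgam1, Aldoc) and beside higher ones (Hk3 at 0.29 and, as CACGTG, Pdk2 of pyruvate entry at 0.74). The windows of Pfkfb3 and Ogdh, which did not pass (-0.03 and 0.06), held CACGTG too. The windows of Tpi1, Hk2, Eno1, Pkm and Gpi, all lower, held no core. The other spelling of the core, GCGTG on either strand, stood in 10 of the 23 glycolytic windows and in 25.9% of all windows. A match is a description of the letters and no evidence of binding.

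The genes at the entry of pyruvate into mitochondria lay on both sides of 0. Pdk4, a kinase that switches off pyruvate dehydrogenase and is known to be induced by fasting and fatty acids, had 2.98 and 3.28 (3.13 ± 0.22, SD, n = 2; limma adjusted p 0.00205), the highest ratio of the 37 genes. This mean stands for probes that lay far apart, at 5.07 and 1.19. Pdk2, the widespread kinase of the same family, was higher by less, at 0.77 and 0.70 (0.74 ± 0.05, limma adjusted p 0.00345). Subunits of the complex they act on split: Pdha1, the catalytic subunit that the kinases phosphorylate, was higher at 1.57 and 1.46 (1.52 ± 0.08, limma adjusted p 0.00187), and Dlat, the acetyltransferase core of the same complex, was lower at -1.22 and -1.19 (-1.21 ± 0.02, limma adjusted p 0.00157). Pc, which carboxylates pyruvate to refill the citrate cycle, was lower at -1.07 and -0.99 (-1.03 ± 0.05, limma adjusted p 0.00223). The rest of the complex lay closer to 0: Pdhb, the partner of Pdha1, had -0.15, and Dld, the shared dehydrogenase, had -0.36.

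In the citrate cycle, Cs, the synthase that condenses acetyl-CoA with oxaloacetate, was lowest at -1.40 and -1.44 (-1.42 ± 0.03, SD, n = 2; limma adjusted p 0.00144), or 2.67-fold lower in lung. Mdh2, the mitochondrial malate dehydrogenase, had -1.001 and -1.005, and Mdh1, its cytosolic counterpart, -0.61 and -0.64. Sucla2, the ATP-forming subunit of succinyl-CoA ligase, had -0.96 on both arrays, and Idh3a, the catalytic subunit of the NAD-dependent isocitrate dehydrogenase, -0.62 and -0.68. These 5 genes were lower, with limma adjusted p from 0.00144 to 0.00353. Against them, Suclg1, the subunit with which Sucla2 pairs, was higher at 0.76 and 0.80 (0.78 ± 0.03, limma adjusted p 0.00249).

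The remaining citrate cycle genes stayed near 0. Aco1, the cytosolic aconitase that doubles as an iron sensor, was lower at -0.28 and -0.26 (limma adjusted p 0.0119), which became -0.05 with array medians subtracted (limma adjusted p 0.602). Idh2, the mitochondrial NADP-dependent isocitrate dehydrogenase, was counted as higher at 0.15 and 0.12 (limma adjusted p 0.0438), although its probes had opposite signs. Ogdh, the first subunit of the oxoglutarate dehydrogenase complex, had 0.07 and 0.06 and did not pass (limma adjusted p 0.152), again with probes of opposite sign. With array medians subtracted it passed as higher, at 0.29.

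Of the pentose phosphate pathway, only the non-oxidative branch was measured among the listed genes. Taldo1, transaldolase, was higher at 1.46 and 1.44 (1.45 ± 0.01, SD, n = 2; limma adjusted p 0.00135), a 2.73-fold difference. Tkt, transketolase, which works on the same sugars, had -0.05 and -0.03 and did not pass (limma adjusted p 0.297). The arrays therefore gave the partner enzymes different ratios with replicate SDs of 0.01 each.

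For 10 of the 37 genes the array held 2 named probes, and the replicate SD does not cover the difference between them. Hk1 had -0.14 with one probe, which did not pass among all probes (limma adjusted p 0.0604), and -1.24 with the other, which did (0.00242). Pdk4 had 5.07 ± 0.05 (SD, n = 2) with one and 1.19 ± 0.49 with the other; both were higher (limma adjusted p 0.00193 and 0.0366 over all probes, of which 75.9% passed). Idh2 had 0.70 and -0.42, and Ogdh -0.23 and 0.36, so that the direction of these genes depended on the probe. The probes of Cs, at -1.02 and -1.82, shared a direction. For Gpi, Gapdh, Pgam1, Eno1 and Dlat the probes differed by 0.11 to 0.41. The median gap between the highest and the lowest probe was 0.50 over these 10 genes and 0.72 over all 3767 genes with several probes.

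**Figure D2:**
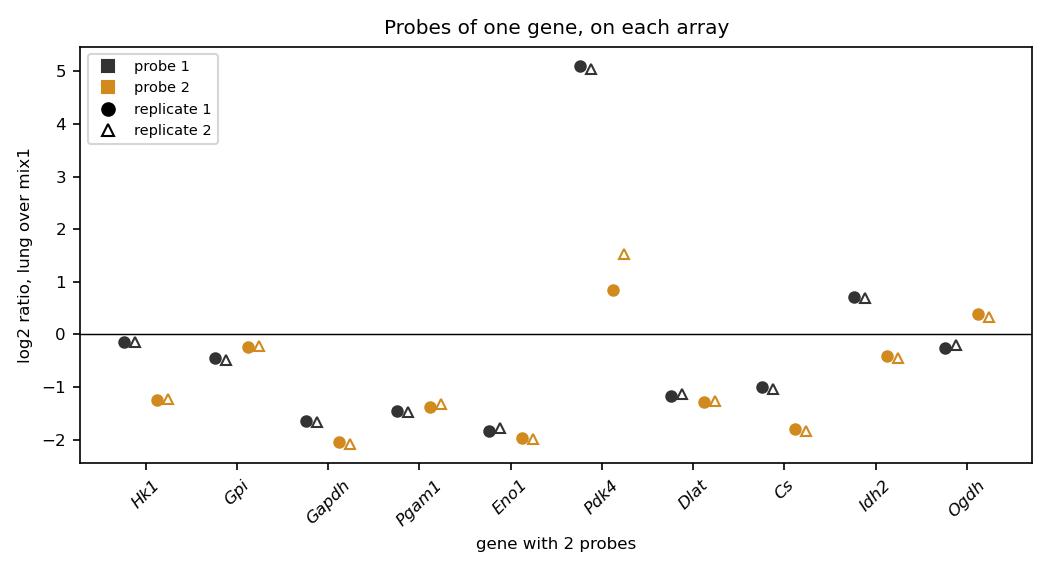
Log2 ratio of lung over mix1 (vertical axis) for each of the 2 probes of 10 genes, dark for the first and orange for the second, with replicate 1 as filled circles and replicate 2 as open triangles. The Pdk4 probes lie 3.88 apart and those of Idh2 and Ogdh fall on either side of 0, while the replicates of nearly every probe coincide.

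Isoenzymes of one step were compared by the difference of their log2 ratios within each array, which does not change when a constant is subtracted from an array. Of 15 pairs, 12 had both genes measured, and 6 of these differed at least 2-fold in both arrays. The differences are given as a description, without a model fitted to them; an exact sign permutation over 2 arrays cannot give a two-sided p below 0.5. Eno1 exceeded Eno2 by 2.25 ± 0.03 (SD, n = 2), with 2.27 and 2.23 in the replicates. Slc2a1 minus Slc2a3 was -1.75 and -1.78 (-1.76 ± 0.02). Ldha minus Ldhb was -1.31 and -1.20 (-1.26 ± 0.08), so that the balance of subunit transcripts in lung was shifted 2.39-fold towards Ldhb relative to mix1.

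Hk2 was the lowest of the hexokinases and Hk3 the highest. Hk2 minus Hk3 was -1.93 ± 0.12 (SD, n = 2). Hk1 stood between them: Hk1 minus Hk2 was 0.95 ± 0.14 and Hk1 minus Hk3 was -0.98 ± 0.02. With the lower probe of Hk1 alone these differences were 0.41 and -1.52, which kept the order. Among the phosphofructokinase subunits the order was Pfkm, Pfkl, Pfkp from low to high. Pfkm minus Pfkp was -1.43 ± 0.05 and Pfkl minus Pfkp was -0.51 ± 0.03. Each difference exceeded its spread over the arrays. Pdk2 minus Pdk4 was -2.20 and -2.59, or -0.45 on average where the lower Pdk4 probe stood for that gene. The closest pairs were Aldoa and Aldoc, 0.29 ± 0.04 apart, and Mdh1 and Mdh2, 0.38 ± 0.02 apart.

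**Figure D3:**
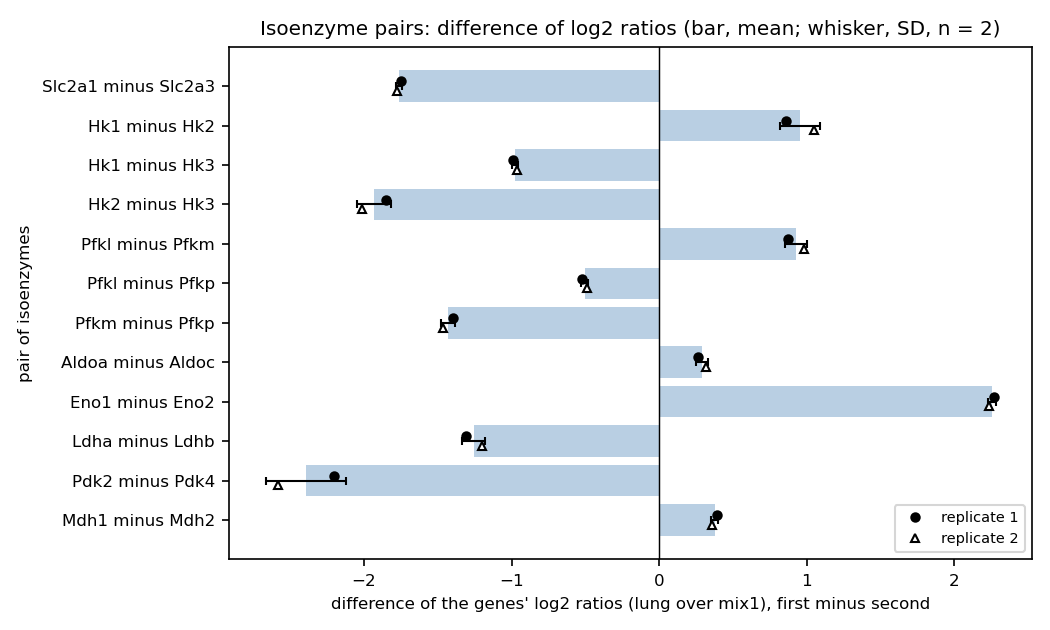
Difference of the log2 ratios (lung over mix1) of the genes of each isoenzyme pair, first minus second (horizontal axis), with bars for the mean, whiskers for the SD of 2 arrays, and points for replicates 1 and 2. Eno1 minus Eno2 (2.25) and Pdk2 minus Pdk4 (-2.39) lie farthest from 0, and Aldoa minus Aldoc (0.29) lies nearest.

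Of 69 other genes of these pathways, 58 were measured, and 30 were lower, 22 higher and 6 did not pass (median -0.21), where 49.7% of all genes were lower and 32.9% higher. With array medians subtracted, 20 were lower and 26 higher, where 37.9% and 40.4% of all genes were. In glycolysis and its transport, 14 of 23 were lower and 7 higher (9 and 8 with array medians subtracted). The lactate carriers Slc16a1 and Slc16a3 were lower at -1.89 ± 0.07 and -1.20 ± 0.01 (SD, n = 2), in the same direction as Ldha. Their relative Slc16a7 was counted as lower at -0.22 (limma adjusted p 0.0168) and lay at 0.001 with array medians subtracted. The insulin-responsive transporter Slc2a4 (-1.40 ± 0.12) and Slc2a10 (-1.11 ± 0.02) were also lower. The highest ratio of this list was that of Eno4, an enolase family member of sperm, at 2.99 ± 0.12. The sperm lactate dehydrogenase Ldhc had 1.82 ± 0.41. Pfkfb2 and Pfkfb1, relatives of Pfkfb3 known from heart and liver, followed at 1.65 ± 0.32 and 1.35 ± 0.05. The lower of the 2 Pfkfb2 probes gave 0.73. The limma adjusted p of the 8 genes other than Slc16a7 ran up to 0.0114.

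Around pyruvate, 7 of 16 other genes were lower and 7 higher (4 and 8 with array medians subtracted). Fbp2 and Fbp1, the fructose bisphosphatases that run the phosphofructokinase step backwards, were higher at 2.15 ± 0.14 and 1.78 ± 0.08 (SD, n = 2), although the lower of the 2 Fbp1 probes gave 0.94. The malic enzymes split, with the mitochondrial Me3 higher at 2.02 ± 0.06 and the cytosolic, NADPH-yielding Me1 lower at -1.98 on both arrays, while Me2, the other mitochondrial form, had 0.08 and did not pass (limma adjusted p 0.111). The alanine transaminases split as well, with the cytosolic Gpt higher at 1.20 ± 0.03 and the mitochondrial Gpt2 lower at -1.48 ± 0.02 (-2.13 with the lower of its 2 probes). Pck2, the mitochondrial form of the enzyme that makes phosphoenolpyruvate, was lower at -1.27 ± 0.07, at an adjusted p of 0.00202 in limma. Pck1, the cytosolic form, was higher at 1.05 ± 0.39 (limma adjusted p 0.0300). Of the phosphatases that reactivate pyruvate dehydrogenase, Pdp2 was lower at -0.44 ± 0.07 and Pdp1 higher at 0.76 ± 0.01.

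In the citrate cycle, 6 of 9 other genes were higher and 3 lower (median 0.32). All 4 subunits of succinate dehydrogenase, the enzyme shared with the respiratory chain, were higher: Sdhd at 1.15, Sdha at 0.82, Sdhc at 0.73 and Sdhb at 0.41, each with replicates that differed by 0.01 (SD) or less. This group was singled out after its values were seen. The cycle was thus not uniform, with Cs and Mdh2 at least 2-fold lower on both arrays and the succinate dehydrogenase genes higher. Slc25a1, which exports citrate from mitochondria for lipid synthesis, was lowest at -2.25 on both arrays, and Dlst, the partner of Ogdh, lay at -0.50 ± 0.01. Idh3b, another subunit of the enzyme of Idh3a, was counted as lower at -0.20 ± 0.02 and lay at 0.02 with array medians subtracted.

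Of 10 other pentose phosphate genes, 6 were lower and 2 higher (5 and 4 with array medians subtracted). Pgls, the lactonase of the oxidative branch, was lower at -1.66 ± 0.02 (SD, n = 2), and H6pd, its counterpart in the endoplasmic reticulum, at -0.84 ± 0.25. Tktl1, a transketolase relative, lay at -1.54 ± 0.33, in contrast to Tkt near 0. Of the synthetases that turn ribose phosphate into the precursor of nucleotides, Prps1 was lower at -1.22 ± 0.01 and Prps2 higher at 0.50 ± 0.04. Rbks, which phosphorylates free ribose, was higher at 1.48 ± 0.03.

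Genes outside these pathways that are known targets of hypoxia-inducible factors, which also act on many glycolytic genes, had no single direction. Of 19, 11 were lower and 7 higher, with a median of -0.74, where 49.7% of all genes were lower and 32.9% higher. Counted by size, 9 were at least 2-fold lower in both arrays and 3 at least 2-fold higher, where 15.8% and 16.5% of all genes were. The collagen cross-linking enzymes Loxl2 and Lox were lowest at -4.74 ± 0.06 and -4.35 ± 0.03 (SD, n = 2). The fibroblast markers, whose matrix these enzymes cross-link, had a median of -6.45, and the part of fibroblasts was not tested. Other targets were lower too, such as Adm at -3.62 ± 0.02 and Ddit4 at -1.93 ± 0.06. Vegfa, the growth factor of the endothelium, was higher at 2.20 ± 0.03 (1.40 with the lower of its 2 probes). Bnip3l, a mitophagy receptor that also acts in maturing red cells, was higher at 1.55 ± 0.05. So were Kdm3a at 1.16 ± 0.02 and Mxi1 at 0.81 ± 0.02. 

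**Figure D4:**
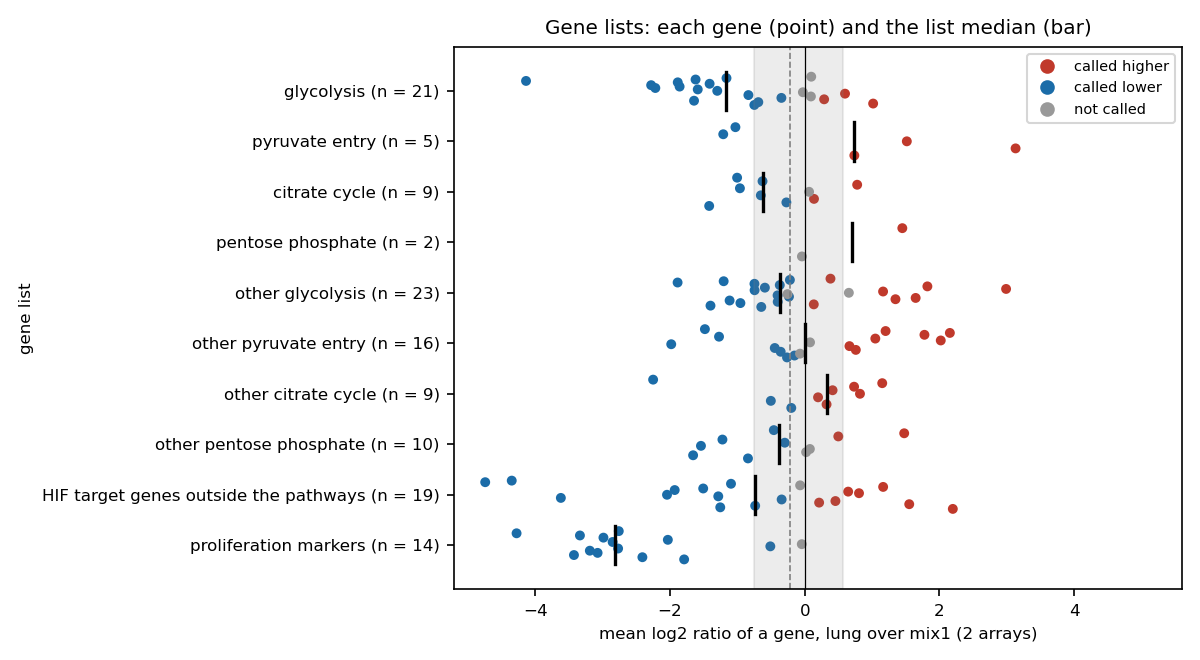
Mean log2 ratio of lung over mix1 (horizontal axis) of every measured gene in 10 lists, coloured by its call in limma's test, with list medians as black bars, the median of all genes as a dashed line and their interquartile range as a grey band. Glycolysis has a median of -1.16 and the proliferation markers of -2.81, while the lists of other pathway genes have medians between -0.38 and 0.32.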

How the data were processed

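Per the labels' protocols, RNA of cell pellets was extracted with TRIzol and purified with an RNeasy kit. The authors deposited 1 value per probe and array, taken as log2 ratios. Per the submitters' processing notes, Agilent Feature Extraction was used; the sources used here do not give its version, background correction or dye normalization. The log base is not stated, but values from -11.74 to 9.09 are too wide for base-10 ratios of a scanner, so base 2 was used. The probe medians are -0.16 and -0.21, and what the arrays were centred on stays unknown. Folds of dim probes depend on the unknown background correction.

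Of 40012 probes, 20417 carried 1 symbol in GEO's platform annotation, none several, and 19595 are unnamed here. Symbols were updated against the RefSeq table of GRCr8, by accession for 16987 probes, and the probes of a gene were averaged. All 15611 genes were fitted by limma 3.58.1 under R 4.3.3 (an intercept in lmFit, then eBayes and Benjamini-Hochberg adjustment), with 1 residual and 1.28 prior degrees of freedom. The ratio against 0 leaves out the spread of mix1. All measured members are named. Of other pathway genes, up to 4 per list and direction farthest from 0 are named, and of other lists up to 2. Pdhb, Dld, Pdp1, Me2, Pck1, Eno3, Pklr, Gapdhs, Pgk2, Pgam2, Slc16a7, Adm, Ddit4, Kdm3a and Mxi1 were added after their values were seen. So were the muscle genes other than Tnni3, Myh6, Myh1 and Myh2. Members and lists were chosen with earlier results of these data known. Alternatives were array medians subtracted, quantile scaling, robust eBayes, treat against 2-fold, the median probe (the lower of 2), adjusted p under 0.01, single probes, a 2-fold count and each array left out.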

Additional observations from a re-analysis of the deposited data

How the results depend on the processing

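Quantile scaling between the arrays and robust eBayes changed no call among the 37 pathway genes and no count by over 1.5 times. With array medians subtracted, which raised the median gene by 0.22, 32 of the 37 stayed on the same side of the threshold, 3 became higher (Pfkl, Ldhb and Ogdh) and 2 lost theirs (Aco1 and Gpi), so that 5 glycolysis genes were higher instead of 3. Idh3b then lay at 0.022. With the lower of 2 probes for a gene, Idh2 was reversed at -0.42 and Ogdh lay at -0.23, 1 citrate cycle gene was higher, and the isoenzyme differences were 0.41 for Hk1 minus Hk2, -1.52 for Hk1 minus Hk3, 2.17 for Eno1 minus Eno2 and -0.45 for Pdk2 minus Pdk4. Probe by probe, and at an adjusted p under 0.01, 1 citrate cycle gene was higher, and at that threshold 18 other pathway genes were lower. In limma's treat against a 2-fold change, 16 of the 37 genes lost their call: 0 glycolysis genes and 0 citrate cycle genes were higher, 1 pyruvate entry gene and 1 citrate cycle gene were lower, and of the other pathway genes 9 were lower and 7 higher. Counted as at least 2-fold in both arrays, 1 glycolysis gene and 0 citrate cycle genes were higher, 1 pyruvate entry gene and 2 citrate cycle genes were lower, and of the other genes 11 were lower and 11 higher. Leaving out replicate 1 or 2 leaves 1 array and no test. The number of pyruvate entry genes at least 2-fold lower was then 1 to 2, with Pc the second without replicate 2. No paired analysis was possible because the arrays form 1 group and each carries its own control channel. Signal over background is unknown here, so which ratios rest on dim spots cannot be told.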
